A study of Mus musculus with 3 samples.

Results

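Mouse chromosome 15 was described through its CCCGGG sites in ID8, a mouse ovarian cancer cell line. Per the labels it is of strain C57BL/6, female, and its cells are of the ovarian surface epithelium; methylation tables cannot check that cell type against expressed markers. The 3 libraries form 1 group of cells at baseline without treatment, grown in RPMI with fetal bovine serum and gentamicin, and there is no other group. The members are all 7206 sites listed on chromosome 15 of 173449 listed on all chromosomes, between positions 3001582 and 103482564 (mm9). The chromosome was chosen by its read depth and its methylation levels, so both are given as a description, without a test.

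DNA methylation in mammals sits mostly on the cytosine of CpG pairs. Stretches rich in CpG, many of them at gene starts, are usually free of methylation, while scattered CpG sites elsewhere are usually methylated. Digital restriction enzyme analysis of methylation (DREAM) reads it at CCCGGG, where SmaI cuts unmethylated copies first and leaves ends that begin GGG, and XmaI then cuts the rest and leaves ends that begin CCGGG. The level of a site is the share of its reads with the methylated signature. The number of reads at a site also carries information, because it follows the amount of DNA at that place, together with the length of the fragments to the next CCCGGG on either side and other features of the sequence.

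Of the 7206 sites, 1286 had at least 10 reads in each of the 3 libraries and are called covered. That is 17.8% of the listed sites, against 14.2% of the 157690 sites listed on the other autosomes. Chromosome 15 held 506802 of the 7689526 reads of replicate 1, 613262 of 9190335 in replicate 2 and 691760 of 10361138 in replicate 3, which is 6.59%, 6.67% and 6.68% of the reads on 4.15% of the listed sites. The median covered site had 181, 201 and 222 reads in the 3 libraries. At the limit of coverage, 49 listed sites had 10 reads in their lowest library and 50 had 9. No read was counted at 1971 sites in any library. Levels are given as the mean of the 3 libraries with the SD between them. The labels do not say that the libraries came from separate cultures, so this SD may be technical. Where no methylated read was seen, the level that 3 such reads would give is stated as the limit, which reflects counting error alone.

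The sites have no gene names in the deposited tables, which are on mm9. Some of them could still be tied to a promoter by sequence alone. Among 936 RefSeq promoter windows of chromosome 15 (GRCm38.p6, 250 bases before to 50 after a gene start), 146 hold CCCGGG, a palindrome that reads the same on both strands. This is 15.6%, against 13.5% of all 32851 promoter windows in the table. A window was placed where the distances between its CCCGGG letters, and the lack of others, fitted 1 run of listed sites on chromosome 15 only; no coordinate was carried between builds. Of 28 windows with 2 or 3 such sites, 12 were placed, and their order along mm9 was the order of the genes. The 6 windows with 3 sites rest on 2 distances, and 4 of them fitted no other place on any chromosome. The 6 windows with 2 sites rest on 1 distance that was unique on chromosome 15 only. These 12 windows held 28 different listed sites, of which 20 were covered.

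The promoters of 5 of these genes are shown because together they span the states found on the chromosome, a choice made after their levels were seen. Hdac7 (a class IIa histone deacetylase) and Letmd1 (a mitochondrial inner membrane protein) were unmethylated, Shank3 (a scaffold protein of excitatory synapses) was partly methylated, Kcnj4 (an inwardly rectifying potassium channel) was graded, and Tafa5 (a secreted chemokine-like protein) was methylated at its only covered site. The sequences are RefSeq's on GRCm38.p6, from 250 bases before to 30 after the gene start, read 5′ to 3′ in the direction of the gene. Hdac7 lies on the minus strand at chr15:97831466-97831745, Letmd1 on the plus strand at chr15:100468761-100469040, Shank3 on the plus strand at chr15:89499358-89499637, Kcnj4 on the minus strand at chr15:79505212-79505491 and Tafa5 on the plus strand at chr15:87544049-87544328. Capitals mark each CCCGGG.
Hdac7: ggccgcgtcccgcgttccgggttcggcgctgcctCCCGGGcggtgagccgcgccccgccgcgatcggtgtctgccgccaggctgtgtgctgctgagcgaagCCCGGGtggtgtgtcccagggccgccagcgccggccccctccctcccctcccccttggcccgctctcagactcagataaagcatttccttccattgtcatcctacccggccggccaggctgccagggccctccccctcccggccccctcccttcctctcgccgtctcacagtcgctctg
Letmd1: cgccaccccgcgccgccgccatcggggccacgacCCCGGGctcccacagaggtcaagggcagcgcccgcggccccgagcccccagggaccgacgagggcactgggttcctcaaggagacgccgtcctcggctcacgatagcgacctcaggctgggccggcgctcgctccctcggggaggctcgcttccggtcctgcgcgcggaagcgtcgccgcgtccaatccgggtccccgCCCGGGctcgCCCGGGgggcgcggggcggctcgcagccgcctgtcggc
Shank3: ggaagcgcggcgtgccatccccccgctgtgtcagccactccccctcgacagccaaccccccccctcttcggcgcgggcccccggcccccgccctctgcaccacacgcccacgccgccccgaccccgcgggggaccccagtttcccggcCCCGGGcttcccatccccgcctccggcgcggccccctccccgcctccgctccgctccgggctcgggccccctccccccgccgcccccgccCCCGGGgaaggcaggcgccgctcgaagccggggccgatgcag
Kcnj4: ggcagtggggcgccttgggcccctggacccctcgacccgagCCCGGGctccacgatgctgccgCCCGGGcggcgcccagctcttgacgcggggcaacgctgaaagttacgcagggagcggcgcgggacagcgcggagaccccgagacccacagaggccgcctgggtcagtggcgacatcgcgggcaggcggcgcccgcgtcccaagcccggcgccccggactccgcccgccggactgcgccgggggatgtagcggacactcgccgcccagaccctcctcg
Tafa5: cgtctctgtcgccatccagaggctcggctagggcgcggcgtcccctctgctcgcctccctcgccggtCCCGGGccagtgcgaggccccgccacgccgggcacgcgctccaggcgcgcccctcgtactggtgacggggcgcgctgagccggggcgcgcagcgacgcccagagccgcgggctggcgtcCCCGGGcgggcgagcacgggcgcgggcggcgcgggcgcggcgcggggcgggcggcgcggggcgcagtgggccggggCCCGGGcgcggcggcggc

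Sites on chromosome 15 were read more deeply than like sites elsewhere. Each covered site was set beside the median of covered sites on the other autosomes of equal methylation class whose distances to the listed sites on both sides fell in the same bins. The log2 ratio could be formed for 1211 of the 1286 sites, those whose group held at least 20 sites elsewhere. Its median on the log2 scale was 0.47, 0.45 and 0.43 in replicates 1, 2 and 3, a mean of 0.45 ± 0.02 (SD, n = 3), or 1.37 times the reads of matched sites. Only chromosome 19 was higher, at 0.62 ± 0.01, and chromosome 11 followed at 0.28 ± 0.01. The remaining 16 autosomes lay between -0.17 and 0.18. Single sites scattered widely. The lower and upper quartiles of chromosome 15 sites were -0.23 and 1.01, against -0.63 and 0.50 on the other autosomes. Of the chromosome 15 sites 66.6% were above 0, against 48.6% elsewhere, and 60.4% were above 0 in all 3 libraries. How many copies of the chromosome the cells carry was not measured, and base composition was not matched.

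**Figure D1:**
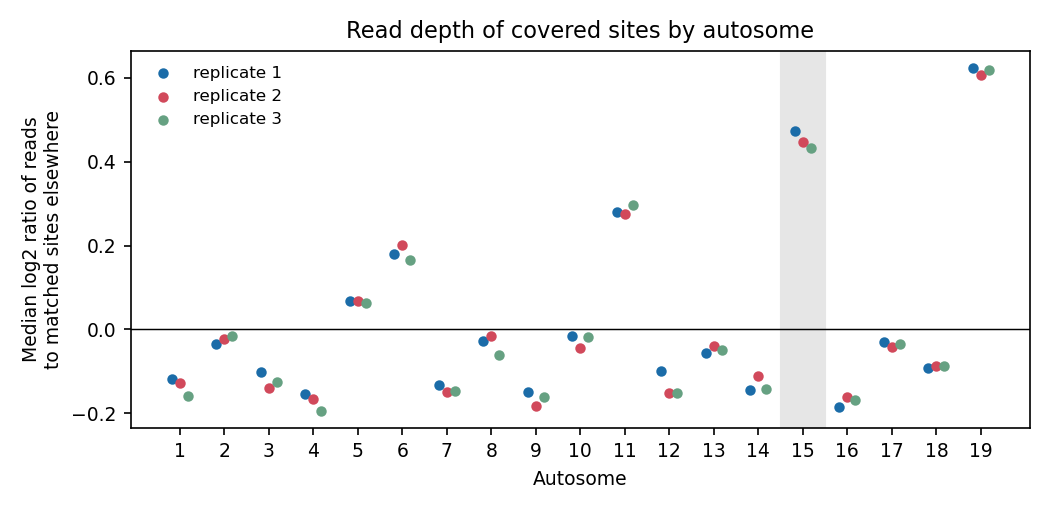
Median log2 ratio of reads at covered sites to matched sites of the other autosomes, on the y axis, for each autosome, with 1 point per library. The 3 points of chromosome 15 (shaded) lie between 0.43 and 0.47, below those of chromosome 19 and above those of all other autosomes.

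The size of the excess depended on how sites were counted. With all listed sites summed and no minimum of reads, the ratio matched on distances was 0.56 ± 0.01 (SD, n = 3). With at least 50 reads in every library it was 0.51 ± 0.02. Without any matching it was only 0.12 ± 0.07, and with 1 value for each run of sites up to 500 bp apart, a check added after the data were seen, it was 0.33 ± 0.02. All of these were above 0.

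The excess was seen in each methylation class. The log2 ratio of low sites (under 10% methylated) was 0.53 ± 0.01 (SD, n = 3), formed for 520 of 535. For partial sites (10% to under 70%) it was 0.49 ± 0.01, formed for only 167 of 208. For high sites (70% or more) it was 0.34 ± 0.01, formed for 524 of 543. The excess was smaller at lone sites, those with no other listed site within 500 bp, at 0.12 ± 0.05. At sites with 1 neighbour it was 0.62 ± 0.02. Lone sites had few reads, with a median of 78 over the 3 libraries together, against 1646 at sites with 1 neighbour. The ratio leaves out sites under the minimum of reads, and what this does to its size at lone sites was not tested. On chromosome 15, 377 of 5014 lone sites (7.52%) were covered, against 4.63% from sites with the same distances on the other autosomes. With 1 neighbour the shares were 55.9% and 47.6%, and with 2 neighbours 50.4% and 43.1%. With 3 to 4 neighbours they were 34.4% and 34.0%, and with 5 or more 6.74% and 11.2%. Over all listed sites, 1286 were covered where 1053 were expected from the distances alone.

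Along the chromosome, 15 of the 21 windows of 5 Mb held at least 20 covered sites, 1233 sites in all. Each of these 15 had a median log2 ratio above 0 in all 3 libraries, against 111 of 331 such windows (33.5%) on the other autosomes. All 11 windows of chromosome 19 and 22 of the 23 of chromosome 11 were above 0 too. The window values of chromosome 15 ranged from 0.18 to 0.66, and 7 of them exceeded 0.37, the 95th percentile of the other autosomes' windows.

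The highest window, from 95 to 100 Mb, stood at 0.66 ± 0.01 (SD, n = 3) over 173 covered sites, with 0.67, 0.67 and 0.66 in the 3 libraries. The window from 75 to 80 Mb, the richest in covered sites with 248, stood at 0.61 ± 0.01, and that from 65 to 70 Mb, with 29, at 0.60 ± 0.05. Among all autosomal windows with at least 20 covered sites these 3 held ranks 5, 9 and 10. The lowest were those from 30 to 35 Mb (0.18 ± 0.04, 32 sites), 60 to 65 Mb (0.20 ± 0.15, 20 sites) and 25 to 30 Mb (0.21 ± 0.06, 38 sites). Of these 6 windows, the 4 with fewer than 40 covered sites moved by over 1.5 times with the settings. With at least 50 reads in every library, the window from 65 to 70 Mb was at 0.35 ± 0.12. That from 25 to 30 Mb was then at 0.36 ± 0.14, and with all listed sites summed and no minimum at 0.54 ± 0.02. With a library left out, sites needed 10 reads in the remaining libraries only, so more sites were covered. The window from 25 to 30 Mb was then at 0.06 without replicate 1 and 0.08 without replicate 3. What the added sites and the missing library each contributed was not tested. That from 60 to 65 Mb was at 0.0026 without replicate 2, and that from 30 to 35 Mb was at 0.06 when matched on distances only and 0.04 with 1 value per run of sites. The windows from 75 to 80 and 95 to 100 Mb stayed between 0.45 and 0.96 under the same alternatives. Between the deep windows at 75 to 80 and 95 to 100 Mb lay windows at 0.33 ± 0.07, 0.42 ± 0.06 and 0.26 ± 0.03. The last window, from 100 to 105 Mb, was at 0.31 ± 0.04. The SD of the windows' log2 ratios around their own mean was 0.16. This was inside the range of the other autosomes (0.12 to 0.26, median 0.18) and at rank 14 of 19 from the largest. The windows of chromosome 15 thus scattered around their own mean no more widely than those of most autosomes. Their middle value, 0.33, lay below the 0.45 of the whole chromosome. How far windows lay from their chromosome's value was not compared between autosomes.

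**Figure D2:**
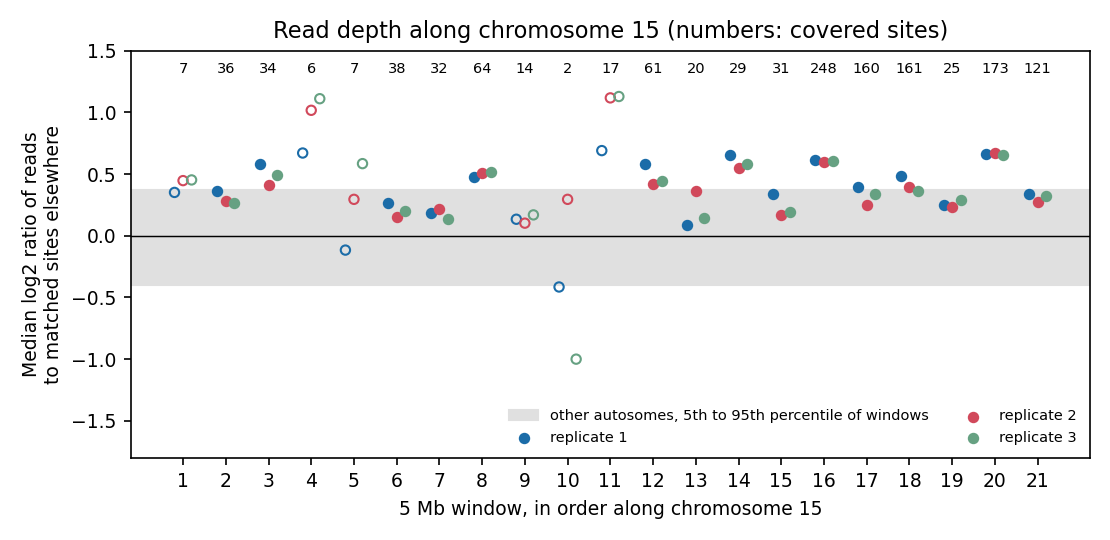
Median log2 ratio of reads to matched sites (y axis) in the 21 windows of 5 Mb in order along chromosome 15 (x axis), 1 point per library; open points mark windows with fewer than 20 covered sites, numbers give the covered sites, and the grey band spans -0.40 to 0.37, the 5th to 95th percentile of windows of the other autosomes. All filled points lie above 0.

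The 6 windows with fewer covered sites held only 53 of them, and 4 of the 6 were above 0 in all libraries. Among those, the windows from 50 to 55 Mb (0.98 ± 0.25, 17 sites) and 15 to 20 Mb (0.93 ± 0.23, 6 sites) had the highest values of the chromosome by covered sites. Their spread between libraries was wide. Covered sites alone hide how little was read there. With all listed sites summed, the window from 50 to 55 Mb had a log2 ratio of -0.24 ± 0.04 and that from 15 to 20 Mb -1.16 ± 0.24. The windows from 45 to 50, 20 to 25 and 0 to 5 Mb were at -3.22 ± 0.18, -2.14 ± 0.09 and -0.70 ± 0.04. Of the 6, only that from 40 to 45 Mb was above 0 on this measure, at 0.10 ± 0.03. Windows with few listed sites were low on other autosomes too: with under 200 listed sites, the median was -1.16 over 5 windows of chromosome 15 and -1.24 over 74 windows elsewhere. With 200 to under 400 listed sites, classes set after the data were seen, it was 0.28 over 11 windows and -0.22 over 283, and with 400 or more it was 0.76 over 5 windows and 0.04 over 126. On this measure the window from 60 to 65 Mb was at -0.30 ± 0.05, and all others with at least 20 covered sites were between 0.01 and 0.96.

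The covered sites of chromosome 15 were split between unmethylated and methylated. The mean level was 46.4%, 46.8% and 46.8% in the 3 libraries, or 46.6% ± 0.228 (SD, n = 3), against 43.0% ± 0.163 on the other autosomes. Low sites made up 41.6% ± 0.404, partial sites 16.2% ± 0.456 and high sites 42.2% ± 0.494, against 45.9%, 15.3% and 38.7% elsewhere. The mean level and the high share were above, and the low share below, those of each of the other 18 autosomes, whose nearest were chromosome 8 at a mean of 45.7% and a low share of 42.1%, and chromosome 18 at a high share of 41.5%. In all 3 libraries together, 176 of the 1286 sites lacked methylated reads and 127 lacked unmethylated reads. Few sites lay at the limits of the classes, with 3 sites from 9% to under 10%, 5 from 10% to under 11%, 3 from 69% to under 70% and 6 from 70% to under 71%.

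These shares moved with the minimum of reads and with the weighting of sites. When the minimum on chromosome 15 was raised by its own depth ratio, to 13.7 reads in every library, 1144 sites were left. Their low share was then 43.8% ± 0.381 (SD, n = 3), with 2 autosomes below it, their high share was 39.7% ± 0.262 and their mean level was 44.4% ± 0.116, with 13 autosomes below it. With at least 50 reads in every library the low share was 48.3% ± 0.116 against 50.8% elsewhere, and 4 autosomes were lower. With sites weighted to the distances found on the other autosomes, the mean level was 43.9% against 43.0%. With the authors' adjusted percent, or with any 1 library left out, chromosome 15 again had the lowest low share, the highest high share and the highest mean level of the 19 autosomes, all at a common minimum of 10 reads. What the higher level owes to depth or to the spacing of sites was not tested.

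On chromosome 15, lone sites had the highest mean level of the 5 groups by number of neighbours and sites with 2 neighbours the lowest, while on the other autosomes the lowest were sites with 3 to 4 neighbours. Lone sites averaged 64.6% ± 0.497 (SD, n = 3) on chromosome 15 and 60.7% ± 0.259 elsewhere. Sites with 1 neighbour averaged 47.2% ± 0.193 and 44.2% ± 0.138. With 2 neighbours the order turned, at 25.03% ± 0.0789 on chromosome 15 against 30.9% ± 0.153, and 3 autosomes were lower still. With 3 to 4 neighbours chromosome 15 was at 33.3% ± 0.174 against 22.8% ± 0.113, and its low share there, 54.2% of 190 sites, was below that of each other autosome (57.3% to 78.4%). The 24 covered sites with 5 or more neighbours averaged 37.9% ± 0.532, against 25.5% ± 0.0607 over 553 sites. The values elsewhere pool the other autosomes, and some single autosomes had higher mean levels than chromosome 15. These were 2 autosomes at lone sites, 3 with 1 neighbour, 1 with 3 to 4 neighbours and 3 with 5 or more. The 141 sites with no neighbour within 1 kb averaged 91.2% ± 0.272, below the 95.3% ± 0.358 of 1338 such sites elsewhere. These SDs come from the 3 libraries and leave out the variation among sites.

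**Figure D3:**
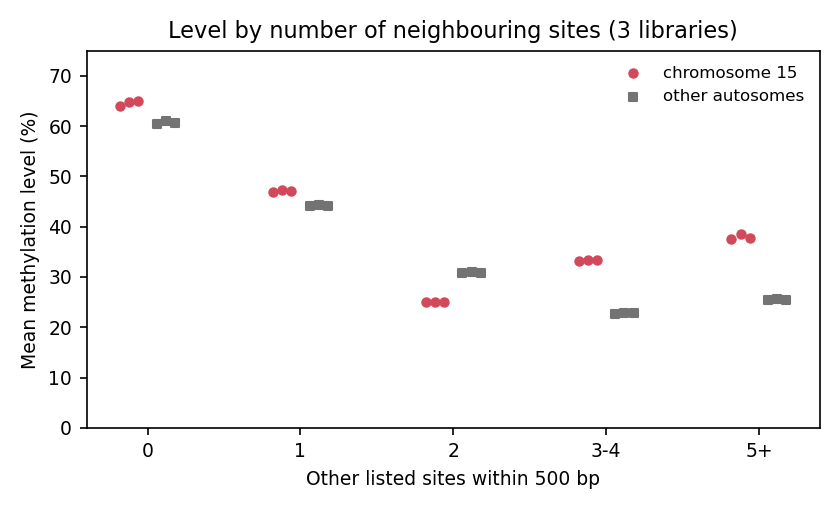
Mean methylation level in percent (y axis) by the number of other listed sites within 500 bp (x axis), with 1 point per library for chromosome 15 (circles) and for the other autosomes (squares). Chromosome 15 lies higher than the other autosomes pooled in each group but that with 2 neighbours, where it is at 25.03% against 30.9%. In each group at least 1 single autosome lies above it.

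Among the 15 windows with at least 20 covered sites, mean levels ranged from 25.4% to 63.9% with a median of 47.2%, and the SD between libraries was at most 0.996 points. The least methylated was that from 5 to 10 Mb, at 25.4% ± 0.193 (SD, n = 3), where 23 of 36 covered sites were low and only 19.4% stood alone. The next were those from 65 to 70 Mb (35.6% ± 0.365, 29 sites) and 95 to 100 Mb (39.3% ± 0.572, 173 sites). The most methylated were those from 30 to 35 Mb (63.9% ± 0.533, 8 of 32 sites low), 60 to 65 Mb (60.9% ± 0.115, 7 of 20 low) and 10 to 15 Mb (54.4% ± 0.772, 14 of 34 low). The 5th and 95th percentiles of the windows on the other autosomes were 27.8% and 57.5%, and the windows at 25.4%, 60.9% and 63.9% fell outside them. The share of partial sites varied between windows. It was highest with 53 of 248 sites (21.4%) from 75 to 80 Mb, 33 of 160 (20.6%) from 80 to 85 Mb and 35 of 173 (20.2%) from 95 to 100 Mb, and lowest from 55 to 60 Mb, with 3 of 61 (4.92%). The windows from 90 to 95 and 100 to 105 Mb had 12% and 14.9%, below the 16.2% of the whole chromosome.

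**Figure D4:**
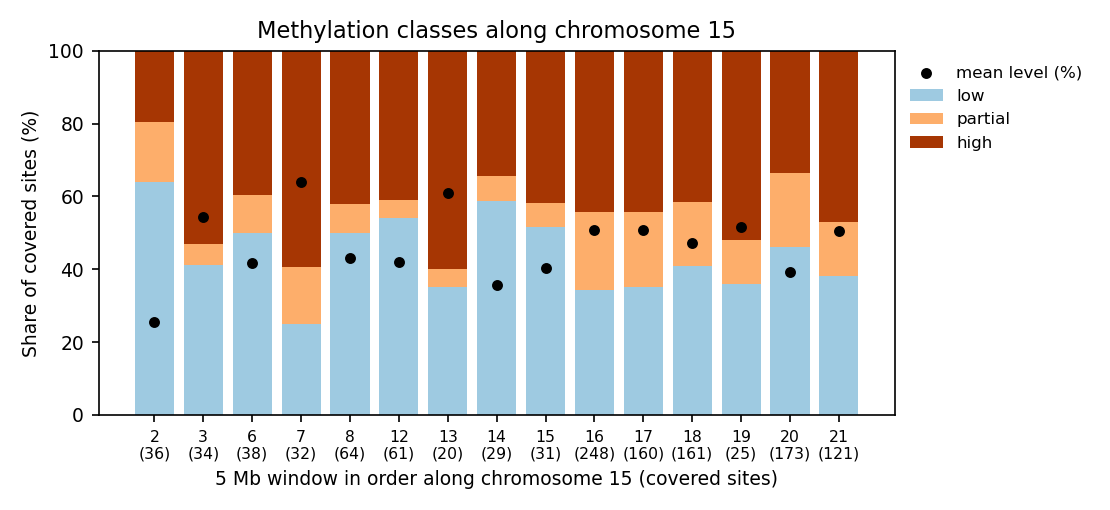
Share of low, partial and high covered sites in percent (stacked bars) and the mean level in percent (black points) in the 15 windows of chromosome 15 with at least 20 covered sites, in order along the chromosome; numbers in brackets are covered sites. Mean levels run from 25.4% in the second window to 63.9% in the seventh.

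Of the 12 placed promoters, 7 had all their covered sites low (2 of these share their sites), 2 had a single covered site that was high, and Kcnj4, Shank3 and Smagp held partial sites. At Hdac7, the site 149 bases before the start (position 97662073, mm9) had 1 methylated read of 1054, 1 of 1140 and 0 of 1279, a level of 0.0609% ± 0.0528 (SD, n = 3). Its other site, and the third of Letmd1, had under 10 reads in each library. At Letmd1, the sites 216 and 18 bases before the start (100299229 and 100299427) were at 0.132% ± 0.228 and 0.273% ± 0.237 over 1201 and 1221 summed reads. The promoter window of Pcbp2, which encodes an RNA-binding protein of poly(C) tracts and shares its sites with that of the lncRNA Gm36331, had 0 methylated of 158 reads at 102300900, which allows up to 1.9%, and 0.0785% ± 0.0702 at 102301075. Of the other lncRNA windows, Gm15569 had 0 methylated of 3663 reads at 86015959, which allows up to 0.0819%, and 0 of 96 at 86015920, and AU022754 was at 0.276% ± 0.259 and 1.14% ± 0.603. Zfp385a, a zinc finger gene, was at 5.89% ± 1.07 over 4020 reads at 140 bases before its start (103170655) and had 0 of 84 reads methylated at 15 bases before it, which allows up to 3.57%. Its remaining site, 8 bases after the start (103170507), went the other way, with 11 of 13, 5 of 6 and 7 of 10 reads methylated, but was not covered in replicate 2.

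Kcnj4 changed level within its promoter. At 209 bases before the start (position 79335878), 56 of 212, 98 of 339 and 114 of 415 reads were methylated, which is 26.4%, 28.9% and 27.5%, a mean of 27.6% ± 1.25 (SD, n = 3). At 187 bases before the start (79335856) the level was 66.4% ± 3.03, with 67.3%, 63.1% and 68.97%, and at 40 bases after it (79335629, outside the printed stretch) it was 89.3% ± 0.488, with 88.9%, 89.3% and 89.9%. The 3 sites did not overlap in any library. Only 22 bp separate the first 2 sites, which are the first 2 capitals in the Kcnj4 sequence.

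By the raw percent, Shank3 was near the middle at both of its sites. Promoter levels are given as raw percents only. Over the 208 partial sites of the chromosome the mean was 39.1% raw and 51.8% by the authors' adjusted percent. The site 102 bases before the start (89329940) was at 59.97%, 64.0% and 59.6% in the 3 libraries, 61.2% ± 2.43 (SD, n = 3), and that 12 bases before it (89330030) at 53.9%, 54.2% and 54.5%, 54.2% ± 0.274. By the number of sites, the run of 8 covered sites around them, from 89329658 to 89330764, was among the 3 largest with low and high sites together. Its outermost site on the right, at 89330764, had 0 methylated of 154 reads, which allows up to 1.95%, while the site before it, at 89330592, was at 86.2% ± 4.57. Smagp, which encodes a small transmembrane glycoprotein of epithelial cells, was at 13.4% ± 1.35 at 155 bases before its start (100467524) and at 10.4% ± 5.27 just inside the gene (100467359), where the libraries ranged from 5.63% to 16.1%.

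Tafa5 and the lncRNA Gm15609 were thinly read, and each had 1 covered site, which was high. At Tafa5, the site 64 bases before the start (87374668) had 18 of 18, 16 of 16 and 21 of 21 reads methylated. At Gm15609, the site 212 bases before the start (89354391) was at 97.7% ± 2.01 (SD, n = 3) over 79 reads. The other 2 sites of each had under 10 reads in each library. Among these, the Tafa5 site 183 bases before the start (87374549) had 4 of 6, 4 of 6 and 3 of 8 reads methylated, and its site 12 bases after the start had 0 of 0, 5 of 6 and 4 of 4.

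**Figure D5:**
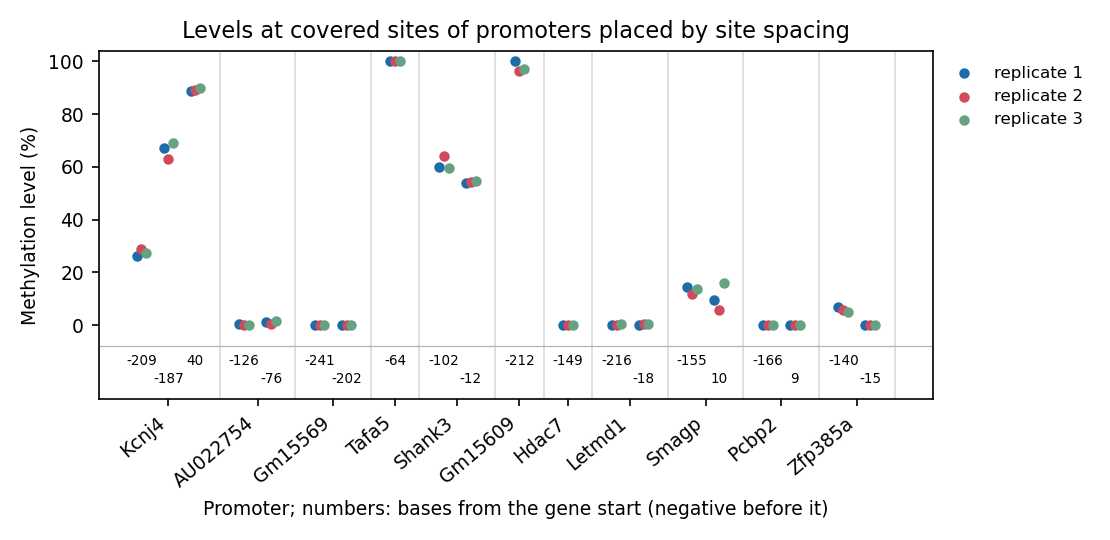
Methylation level in percent (y axis) at the covered sites of the promoters placed by site spacing, in gene order (x axis), with 1 point per library; the small numbers give bases from the gene start, negative before it, and Gm36331 is shown as Pcbp2, whose sites it shares. Kcnj4 rises from 27.6% to 89.3% toward the gene, Shank3 lies between 53.9% and 64.0%, Tafa5 and Gm15609 lie above 96%, and the remaining sites lie below 17%.

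Many runs of neighbouring sites were all low or all high, in shares near those of the other autosomes. Chromosome 15 held 99 clusters, runs of listed sites up to 500 bp apart with at least 3 covered sites. Every site was low in 46 of them (46.5%, against 47.6% of 1610 clusters on the other autosomes), every site was high in 10 (10.1% against 11.9%), and a low and a high site occurred together in 22 (22.2% against 15.9%). No test of this difference was made. With a gap limit of 250 bp the 3 counts were 19, 4 and 9 of 43 clusters, and with 1000 bp they were 53, 9 and 35 of 127.

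The largest low clusters were close to 0 along their whole length. The 6 sites from 59479782 to 59480976 averaged 0.321% ± 0.396 (SD, n = 3) over 18852 reads. The highest site level among them, 1.52%, came from 1 methylated read of 22 in replicate 2. The 5 sites from 58912432 to 58913630 averaged 0.295% ± 0.149 over 15766 reads, and the 5 from 85565256 to 85566133 averaged 0.599% ± 0.148 over 12246.

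The largest high clusters were less uniform. The 5 sites from 95358277 to 95359075 averaged 86.7% ± 1.33 (SD, n = 3) and ranged from 71.7% at the last site to 96.3% at the fourth. The 4 sites from 75577018 to 75577366 averaged 92.7% ± 3.08, and the 3 from 101062028 to 101062542 98.9% ± 0.0818 over 12681 reads. In the last of these, the 3 sites were at 99.4%, 98.7% and 98.7%.

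Clusters with low and high sites together held abrupt steps. In that from 39028973 to 39030486, 6 of the 7 sites were between 76.7% and 100%, while the site at 39029457 had 0 of 46, 6 of 94 and 16 of 126 reads methylated, a level of 6.36% ± 6.35 (SD, n = 3). Its neighbours on either side, 260 and 224 bp away, were at 84.9% ± 6.07 and 96.2% ± 0.378. The SD at this low site (266 summed reads) was near that of 39029197 (408 reads) and above that of 39029681 (4566 reads). The last site of the run, with 96 reads, had an SD of 13.8. In that from 81524174 to 81525408, 4 inner sites at 6.84% to 25.4% gave way to 95.8% ± 0.234 over 148 bp, between 81525046 and 81525194, each with over 2000 summed reads.

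Most partial sites, a class set by the mean of the 3 libraries, were partial in each of them. Of the 208, 176 (84.6%) were partial in all 3, and the median SD between libraries was 2.85 points. They were spread over the range, with 80 sites from 10% to under 30%, 55 from 30% to under 50% and 73 from 50% to under 70%. The most deeply read, at 13104077, had 822 of 2034, 953 of 2327 and 1113 of 2852 reads methylated, a level of 40.1% ± 0.995 (SD, n = 3). A pair of partial sites 369 bp apart followed, at 49.2% ± 0.281 (98322922) and 27.4% ± 1.9 (98323291), with 6257 and 6169 summed reads. The sites at 12323406 and 77864691 were at 58.6% ± 0.383 and 48.2% ± 0.32. By the authors' adjusted percent the 5 were at 55.3%, 64.2%, 41.0%, 72.3% and 63.2%, so that the fourth would be counted as high.

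No single site of chromosome 15 was called different between libraries. Each pair of libraries was compared at every site with a two-sided Fisher's exact test, adjusted by Benjamini-Hochberg over all 24112 covered sites. Calls required 20 points of difference together with an adjusted p below 0.05. None of the 1286 sites met this in any pair (0 calls), where the background over all chromosomes was 0.00415% for replicates 1 and 2, 0.00415% for replicates 1 and 3, and 0% for replicates 2 and 3. Without adjustment, 39, 39 and 36 sites of chromosome 15 passed 0.05 in these pairs. These are 3.03%, 3.03% and 2.8% of its sites, near the background of 3.02%, 3% and 2.84% over all chromosomes. A chi-square test likewise called 0 sites. The lowest adjusted p of Fisher's exact test on the chromosome was 0.609, 0.405 and 0.443. The median absolute difference per site was 0.357, 0.408 and 0.356 points for the 3 pairs. The spread over counting error, as mean chi-square per degree of freedom, was 1.22, 1.24 and 1.27, against 1.41, 1.38 and 1.30 on all other chromosomes. This mean took only sites with enough methylated and unmethylated reads expected in both libraries. On chromosome 15 these were 396, 406 and 430 of the 1286 sites.

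The 5 largest differences between libraries all fell on lone sites with few reads. The largest was at 99432345, where 5 of 13 reads were methylated in replicate 1 (38.5%, exact Clopper-Pearson 95% interval 13.9% to 68.4%), 5 of 14 in replicate 2 (35.7%, interval 12.8% to 64.9%) and 10 of 11 in replicate 3 (90.9%, interval 58.7% to 99.8%). For replicates 2 and 3 the adjusted p of Fisher's exact test was 1. The next was at 84755012, with 5 of 11 (45.5%, interval 16.7% to 76.6%), 9 of 11 (81.8%, interval 48.2% to 97.7%) and 13 of 13 reads (100%, interval 75.3% to 100%), and Fisher's exact test gave an adjusted p of 0.752 for replicates 1 and 3. At 86114775 the adjusted exact p was the lowest of the 5, 0.405, with 52.2%, 76.0% and 93.9% over 23, 25 and 33 reads. The others, at 78961492 and 101097817, had 10 to 16 reads in each library. At this depth, differences of 41.7 to 55.2 points between libraries did not pass at such sites.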

How the data were processed

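The 3 libraries were DREAM libraries of ID8 DNA. The authors deposited counts of methylated, unmethylated and total reads per CCCGGG site, not normalized, and 2 percent columns, raw and adjusted by a factor per library. The site identifiers name mm9 per the file headers, and Bowtie2 and SAMtools are named per the submitters' processing notes; their versions, and whether duplicate reads were collapsed, are not stated in what was used here. The 4th table holds the libraries' summed counts.

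From the counts, levels, classes and depth ratios were computed in Python 3.11.15 with pandas 2.3.3, numpy 2.4.6 and scipy 1.17.1. Distances to the nearest listed sites were binned at 50, 100, 150, 200, 250, 300, 400, 500, 700, 1000 and 2000 bp. In the sum over all listed sites, those above the 99.9th percentile of reads were left out. This sum was divided by the summed mean reads of sites with like distances on the other autosomes, without methylation class. It thus differs from the median of site ratios in more than the minimum of reads. The depth and Fisher steps were checked on simulated data. The members and lists were chosen with earlier results of these data known. The plan named no gene without an annotation on mm9, and none was used, so its gene lists were not analysed. The placing of promoters by site spacing departs from that plan and was chosen after the tables were seen, as was leaving out the most deeply read sites. Named sites, clusters and windows follow fixed rules: the 3 clusters of each kind with the most covered sites, the 5 partial sites with the most reads, the 5 largest differences between libraries, and the 3 highest and lowest windows. Alternatives were other minimums, matching, windows, gap limits and class limits, the adjusted percent and each library left out. With a library left out, the minimum applied to the remaining libraries only. This gave 1379, 1337 and 1331 covered sites of chromosome 15 without replicates 1, 2 and 3, against 1286.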

Additional observations from a re-analysis of the deposited data

Results flagged for a closer look

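Outside the covered sites, the series table holds 1474 further sites of chromosome 15 with at least 10 reads summed over the libraries. They held 26419 reads, with a median of 15 per site, and 87.7% of the sites had no other listed site within 500 bp. Their mean level by the authors' pooled raw percent was 62.2%, with 56.6% of them high and 21.2% low, against a mean of 65.6% and 61.0% high over 20504 such sites of the other autosomes. No SD is given, since these are pooled values.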

How the results depend on the processing

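No paired analysis was possible because the 3 libraries form 1 group. The log2 depth ratio of chromosome 15 (0.45) was 0.51 with a minimum of 50 reads. Summed over all listed sites with no minimum it was 0.56. It was 0.41 with wider distance bins, 0.12 without matching and 0.33 with 1 value per run of sites (added after the data were seen). The range with 1 library left out was 0.42 to 0.45. Under each alternative, 83.3% to 100% of chromosome 15 windows with at least 20 covered sites or runs were above 0 in all libraries used. With no minimum, the 15 windows of the main setting were kept. Over all its windows, the mean ratio with all listed sites summed was above 0 in 1 of 5 with under 200 listed sites. It was above 0 in 9 of 11 with 200 to under 400, and in 5 of 5 with 400 or more. Summed over all listed sites with no minimum, the window from 60 to 65 Mb turned to -0.30. That from 25 to 30 Mb turned to -0.043 with 1 value per run of sites. The cause was not tested. The median window level (47.2% over 15 windows) was 51.1% by the adjusted percent and 46.3% to 48.3% with 1 library left out. At 50 reads it was 33.3%, but over 11 windows only. The most methylated windows, from 10 to 15, 30 to 35 and 60 to 65 Mb, were not among those 11. Low, partial and high shares and the mean level were 48.3%, 16.6%, 35.0% and 40.1% at 50 reads, and 39.4%, 14.4%, 46.2% and 49.9% by the adjusted percent. With the minimum scaled to depth the low share, high share and mean level were 43.8%, 39.7% and 44.4%. Weighted by distances the 4 values were 43.9%, 16.9%, 39.2% and 43.9%, and with classes at 20% and 80% the shares were 44.4%, 16.8% and 38.8%. With 1 library left out they were 40.2% to 41.0% low, 16.1% to 16.8% partial and 42.4% to 43.7% high, and the mean level was 47.1% to 47.9%. Clusters numbered 19 low, 4 high and 9 with both at a gap limit of 250 bp, and 35 with both at 1000 bp. Of the values of single windows under alternatives, 16 moved by less than the SD between libraries, 47 by more, and 2 turned.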
